A study of Mus musculus with 10 samples.

Results

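The triad is the site in a skeletal muscle fiber where a transverse tubule meets the sarcoplasmic reticulum and where an action potential is turned into calcium release. The dihydropyridine receptor in the tubule membrane senses the voltage and opens the ryanodine receptor of the reticulum by direct contact, junctophilins hold both membranes together, and calsequestrin and triadin keep calcium close to the release channel. Desmin is the main intermediate filament of muscle and links the myofibrils, between which the triads lie, to each other and to the cell membrane. The data set was examined for 10 genes of this coupling machinery, chosen by name. These are the dihydropyridine receptor genes Cacna1s, Cacnb1 and Cacng1 with the adaptor gene Stac3, the release channel gene Ryr1 with its partners Trdn, Casq1 and Casq2, and the junctophilin genes Jph1 and Jph2. All 10 were found among the 54232 genes of the table, and all 10 lay above the expression limit that 14289 genes passed (log2(10) or more on average).

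RNA was sequenced from the gastrocnemius, a fast calf muscle (a legend of the study names the neighbouring plantaris with it), of 5 homozygous desmin knock-out mice (Des -/-) and 5 wild-type littermates (Des wt/wt) at 3 months of age. Both groups carry the same strain label, which gives the Destm1Cba allele in a line (Cscl) of B6J and 129Sv stock. The sex of the mice is not stated in the labels. The 4 Y-linked genes checked summed to 12.63 to 13.02 in knock-out and 11.94 to 13.05 in wild-type mice (log2 of summed values). Y-linked transcripts were thus present in every mouse, and a covariate made from them does not compare sexes. Wild-type mouse 3 had the lowest sum. The methods of the study speak of pooled RNA, but the table has 1 column per mouse, and each column was taken as 1 replicate. The values are regularized log (rlog) values, that is expression on a log2 scale, corrected for library size, in which each gene is shrunken towards its own mean. A difference of 1 is thus a 2-fold difference on this scale, smaller than the fold of the counts, and the sequencing depth behind a value is unknown. Differences were tested with limma over all 14289 genes, with Benjamini-Hochberg adjustment and an adjusted p under 0.05 as the threshold. Muscle was measured in bulk, where fewer fibers of one type and less RNA per fiber cannot be told apart.

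Des itself ranged from 16.10 to 17.74 in wild-type and from 11.76 to 11.89 in knock-out mice, as the labels state. The 6 skeletal muscle markers summed to 21.89 to 22.05 in knock-out and 22.16 to 23.20 in wild-type mice (log2 of summed values), without overlap. Wild-type mouse 3 had the 23.20, and the other 4 wild-type mice reached 22.56. Of the 6 markers, 2 fell, namely Myh4 (log2 difference -0.71) and Actn3 (-0.97), while 5.99% of all tested genes fell. Myh4, Actn3, Mylpf and Tnnt3 are also on the fast fiber list below, so the sums of both lists rest in part on the same genes. Wild-type mouse 3 stood apart before any comparison. Its back-transformed values summed to 1.48 times the median mouse, against 0.949 to 1.06 times elsewhere, and its mean r within its group was 0.982, while the other 4 had 0.989 to 0.991. For this reason the tested difference of each of the 10 triad genes is also given without it.

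Of the 10 triad genes, Casq2 rose and Jph2 fell in desmin knock-out muscle at an adjusted p under 0.05 (limma). That is 2 of 10, against 13.7% of all tested genes (7.7% higher and 5.99% lower). Without wild-type mouse 3, 6 of 10 passed, 2 higher and 4 lower, against 17.4% of all genes (9.34% higher and 8.11% lower). Means were higher in knock-out muscle for 3 and lower for 7 of the 10, with a median log2 difference of -0.26 compared with -0.0029 over all tested genes. The median of the 10 was -0.17 without wild-type mouse 3. The values of both genotypes did not overlap for 3 of the 10, namely Casq2, Ryr1 and Stac3, against 14.4% of all genes (7.45% with knock-out above and 6.97% below). The number was also 3 without wild-type mouse 3, but the share over all genes was not computed for that comparison. With fewer mice, values overlap less readily, so this count has no background to be read against.

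**Figure D1:**
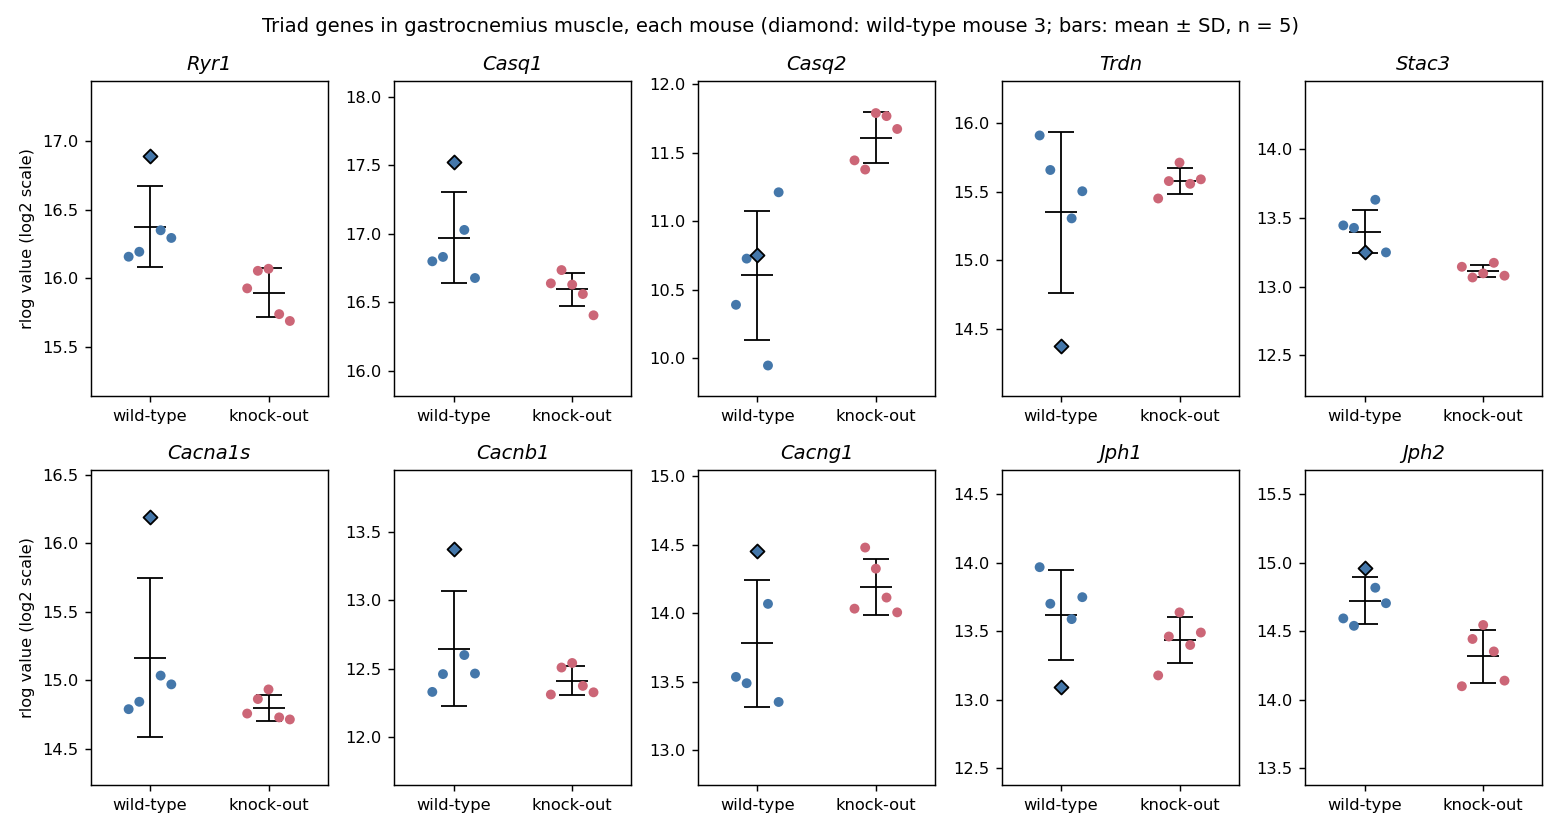
Values of the 10 triad genes in each mouse. The y axis is the deposited rlog value (log2 scale) and spans the same width in each panel, points are single mice, diamonds mark wild-type mouse 3, and bars give the mean ± SD of 5 mice. Casq2 is the gene with all 5 knock-out values above all wild-type values, while Ryr1 and Stac3 have all 5 below.

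Calsequestrin is the calcium-binding protein that stores calcium inside the terminal sacs of the reticulum. Casq1 encodes the form of fast fibers, and Casq2 the form of the heart that slow fibers also make. Casq2 (ENSMUSG00000027861, chromosome 3 of GRCm38, 102086415 to 102146514, forward strand) had 11.44, 11.38, 11.79, 11.77 and 11.67 in knock-out mice 1 to 5. In wild-type mice 1 to 5 it had 10.39, 10.73, 10.75, 9.95 and 11.21. Each knock-out mouse exceeded the highest wild-type mouse, which was mouse 5. Means were 11.61 ± 0.19 and 10.60 ± 0.47 (SD, n = 5 each). They differed by 1.01 on the log2 scale with a standard error of 0.19, or 2.01-fold, and limma gave an adjusted p of 0.00279. Leaving out each mouse in turn kept the difference between 0.84 and 1.16, and the call held in all 19 alternatives, with 1.04 without wild-type mouse 3.

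Casq1 (ENSMUSG00000007122, chromosome 1, 172209894 to 172219868, reverse strand) did not follow. It had 16.64, 16.74, 16.63, 16.56 and 16.41 in knock-out mice and 16.80, 16.83, 17.53, 17.03 and 16.68 in wild-type mice. Wild-type mouse 3 was the highest, and 4 of 5 knock-out mice were lower than any wild-type mouse. The difference of -0.38 on the log2 scale had a standard error of 0.16 and did not pass (adjusted p = 0.147, limma). Without wild-type mouse 3 it was -0.24. Of the 1951 exon bases of Casq1, 156 overlap Gm17224 on the opposite strand, and it was not stated whether reads were counted by strand.

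Because both genes are read in the same mouse, a scaling factor shared by all genes of a library drops out of their difference. The log2 value of Casq2 minus that of Casq1 ranged from -5.36 to -4.73 in knock-out and from -7.08 to -5.47 in wild-type mice, without overlap. Wild-type mouse 3 deviated by -0.51 from the mean of the other wild-type mice. The mean was -6.37 in wild-type and -4.99 in knock-out mice, a shift of 1.38 on the log2 scale. Leaving out each mouse in turn kept this shift between 1.20 and 1.61. An exact two-sided permutation test over the 10 mice gave p = 0.00794, the smallest that 5 against 5 allow, and 0.0238 after adjustment over the 3 pairs of genes compared in this way. Casq1 nevertheless remained far more abundant, as the levels per kb of exon below show.

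The stretches before the RefSeq starts of the 2 calsequestrin genes and of Jph2 are printed because Casq2 and Jph2 are the 2 that passed and Casq1 is the partner of Casq2. Each is the 250 bases before the start, 5′ to 3′ on the gene's strand in GRCm38.p6, at chr3:102086165-102086414 for Casq2, chr1:172219896-172220145 for Casq1 and chr2:163397994-163398243 for Jph2. Capitals mark E-boxes (CANNTG, which muscle regulators of the MyoD family can bind) and, in Casq2, a MEF2 box, and both strands were searched.
Casq2: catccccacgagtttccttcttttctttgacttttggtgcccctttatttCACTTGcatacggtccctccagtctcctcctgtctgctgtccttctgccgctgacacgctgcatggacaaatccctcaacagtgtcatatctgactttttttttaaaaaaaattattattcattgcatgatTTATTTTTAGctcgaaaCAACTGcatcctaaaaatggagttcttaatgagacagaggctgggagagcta
Casq1: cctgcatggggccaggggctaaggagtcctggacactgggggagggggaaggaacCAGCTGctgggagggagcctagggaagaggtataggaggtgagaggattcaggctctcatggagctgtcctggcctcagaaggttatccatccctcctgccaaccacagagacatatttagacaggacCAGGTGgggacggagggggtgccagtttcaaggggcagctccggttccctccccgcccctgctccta
Jph2: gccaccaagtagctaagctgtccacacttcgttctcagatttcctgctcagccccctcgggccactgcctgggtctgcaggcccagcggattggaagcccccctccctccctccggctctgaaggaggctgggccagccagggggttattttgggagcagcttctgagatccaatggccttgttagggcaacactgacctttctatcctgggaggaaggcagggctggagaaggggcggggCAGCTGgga
An E-box was found in all 3 of them, as in 66.2% of all 32851 promoter windows of this length. The form CAGCTG, which is one kind of CANNTG, was present in Casq1 and Jph2 but not in Casq2, and 13% of all windows hold it. A MEF2 box was present in Casq2 alone of the 8 windows found for 6 of the 10 triad genes, and in 1.69% of all windows. These matches describe letters and no binding was measured.

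Slow fibers use Casq2, and of the 8 slow fiber markers 2 rose and 1 fell, while 6 had a higher mean in knock-out muscle. Of all tested genes, 7.7% rose and 5.99% fell, which is the background for this and the following counts of markers. The slow myosin gene Myh7 did not pass, with a log2 difference of -0.052 (adjusted p = 0.933, limma). Tnnc1 (0.53), Atp2a2 (0.28), Myl2 (0.13) and Tpm3 (0.0056) did not pass either. Tnnt1, the slow troponin T, had a log2 difference of 1.70 (adjusted p = 8.53e-05) and Tnni1, the slow troponin I, one of 0.91 (adjusted p = 0.0103), whereas Myl3, a slow and cardiac myosin light chain, fell by 1.00 on the log2 scale (adjusted p = 0.0143; limma for each). The summed level of the slow list ranged from 15.06 to 15.59 in knock-out and from 14.55 to 15.65 in wild-type mice (log2 of the summed values). The highest of these was wild-type mouse 3, and the other 4 wild-type mice reached 15.08, just above the lowest knock-out mouse. Among the 12 fast fiber markers, 1 rose and 3 fell, with the lowest adjusted p for Mybpc2, the fast myosin-binding protein C (log2 difference -1.05, adjusted p = 0.00258, limma). Myh2, the myosin of fast oxidative fibers, was the one that rose (0.77, adjusted p = 0.0195, limma), and Actn3, the fast α-actinin, fell by 0.97 (adjusted p = 0.0196, limma). Of 6 genes of immature fibers, 4 rose and 1 fell. The rises were led by the embryonic myosin gene Myh3 (2.25), the fusion gene Mymk (1.93) and the regulator gene Myog (1.23). The gene that fell was Myod1 (log2 difference -0.47, adjusted p = 0.0219, limma). Summed levels of this list were higher in all 5 knock-out mice (11.08 to 11.80 against 10.38 to 10.85), and those of the fast list lower in all 5 (22.23 to 22.43 against 22.47 to 23.36, or to 22.81 without wild-type mouse 3). Casq2 is also the calsequestrin of the heart. Of 7 cardiac markers 3 passed the expression limit, and of these Myl4, which embryonic skeletal muscle also makes, and Tnni3 rose. The cardiac list summed to between 9.64 and 9.92 in knock-out and between 7.90 and 9.08 in wild-type mice, without overlap. Wild-type mouse 3 had the 9.08, and the other wild-type mice reached 8.65. The other genes of this list, Nppa, Nppb, Myl7 and Ryr2, lay under the limit. The part of these shifts in the difference of Casq2, and of the lower fast list in those of the other triad genes, was not tested. The calls of Myh2, Actn3 and Myl3 were lost in 4, 3 and 1 of 19 alternatives. Tnnt1 differed by 1.91, Tnni1 by 1.10, Myh2 by 0.88, Myl3 by -0.76, Mybpc2 by -0.86 and Actn3 by -0.70 (log2) without wild-type mouse 3, and each passed.

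**Figure D2:**
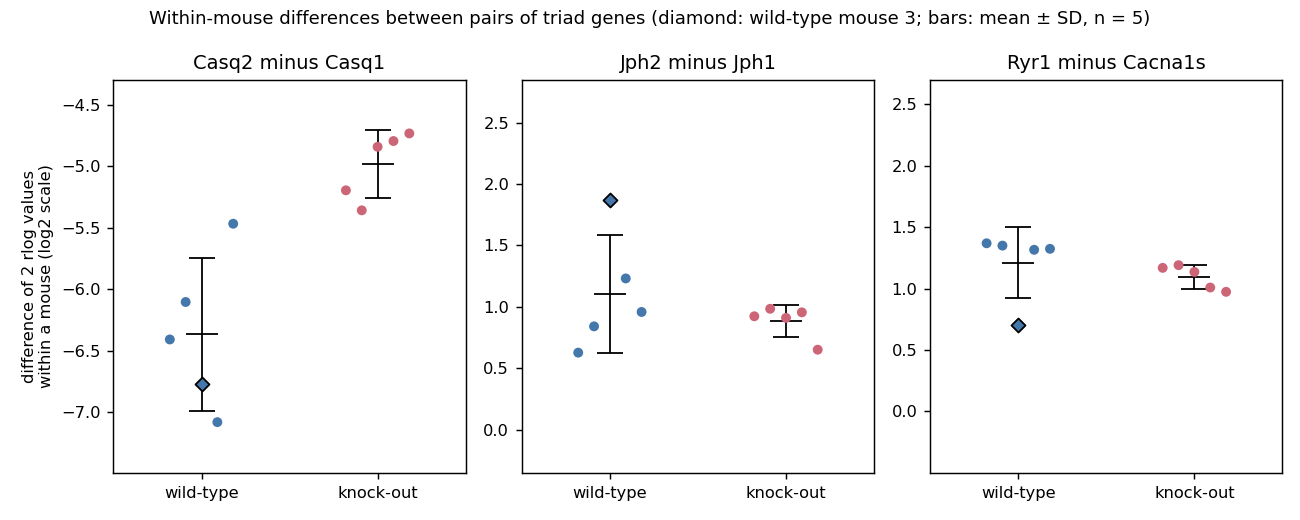
Differences between 2 triad genes within each mouse. The y axis is the rlog value of the first gene minus that of the second (log2 scale), points are single mice with wild-type mouse 3 as a diamond, and bars give the mean ± SD of 5 mice. Casq2 minus Casq1 is higher in all 5 knock-out mice, from -5.36 to -4.73, while the genotypes overlap for Jph2 minus Jph1 and for Ryr1 minus Cacna1s.

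Ryr1 encodes the calcium release channel itself, a very large protein. Ryr1 (ENSMUSG00000030592, chromosome 7, 29003344 to 29125179, reverse strand) had 15.93, 16.06, 16.07, 15.74 and 15.69 in knock-out mice 1 to 5 and 16.16, 16.19, 16.89, 16.35 and 16.30 in wild-type mice 1 to 5. No knock-out mouse reached the lowest wild-type mouse, while wild-type mouse 3 stood well above the rest of its group. Knock-out muscle differed by -0.48 (log2, 95% confidence interval -0.81 to -0.15), just short of the threshold (adjusted p = 0.0551, limma). Without wild-type mouse 3 it was -0.35 and passed (adjusted p = 0.0295, limma). Over the 19 alternatives the difference stayed between -0.54 and -0.31, and it passed in 4 of them.

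Trdn encodes triadin, which ties calsequestrin to the release channel. Trdn (ENSMUSG00000019787, chromosome 10, 33080554 to 33476709, forward strand) had 15.45, 15.58, 15.71, 15.56 and 15.59 in knock-out and 15.91, 15.66, 14.38, 15.31 and 15.51 in wild-type mice. The groups overlapped, and here wild-type mouse 3 was the lowest of all 10. On the log2 scale the difference was 0.23 (95% confidence interval -0.26 to 0.71), with an adjusted p of 0.549 by limma. It turned to -0.017 without wild-type mouse 3, to -0.11 with sample weights and to -0.088 with the Y-linked covariate.

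The dihydropyridine receptor genes showed no call with all 10 mice. Cacna1s, which encodes the pore and voltage sensor (ENSMUSG00000026407, chromosome 1, 136052750 to 136119822, forward strand), had 14.76, 14.86, 14.93, 14.73 and 14.72 in knock-out mice. In wild-type mice 1 to 5 it had 14.79, 14.84, 16.19, 15.04 and 14.97. The groups overlapped apart from wild-type mouse 3, which stood 1.28 above the mean of the other 4 wild-type mice. The log2 difference was -0.37 with all mice (95% confidence interval -0.84 to 0.11, adjusted p = 0.308, limma) and -0.11 without that mouse. Opposite Cacna1s, 1309 of its 6550 exon bases are shared with Gm37759, which had a mean of 2.62 and was not tested.

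Cacnb1, the β subunit that brings the pore to the membrane (ENSMUSG00000020882, chromosome 11, 98001508 to 98023034, reverse strand), was alike in pattern. Its values were 12.31, 12.51, 12.54, 12.38 and 12.33 in knock-out and 12.33, 12.46, 13.38, 12.60 and 12.46 in wild-type mice. Apart from the high wild-type mouse 3 the genotypes overlapped, and the log2 difference of -0.23 (95% confidence interval -0.59 to 0.12, adjusted p = 0.389, limma) was -0.051 without it.

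Cacng1, the γ subunit of the skeletal channel (ENSMUSG00000020722, chromosome 11, 107703218 to 107716522, reverse strand), was the receptor gene with a higher mean in knock-out muscle. It had 14.04, 14.48, 14.33, 14.12 and 14.01 in knock-out and 13.54, 13.49, 14.46, 14.07 and 13.35 in wild-type mice. Wild-type mice 3 and 4 lay within the knock-out range, and wild-type mice 1, 2 and 5 below it. The difference of 0.41 (log2) had a standard error of 0.19 and did not pass (adjusted p = 0.184, limma). Without wild-type mouse 3 it was 0.58 and passed (adjusted p = 0.0117, limma). It passed in 5 of 19 alternatives, among them quantile normalization (0.55).

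Stac3 encodes the adaptor that couples the voltage sensor to the release channel. Stac3 (ENSMUSG00000040287, chromosome 10, 127501686 to 127508823, forward strand) had 13.14, 13.07, 13.10, 13.17 and 13.08 in knock-out and 13.45, 13.43, 13.25, 13.63 and 13.25 in wild-type mice. The genotypes did not overlap, and the knock-out SD of 0.045 was the smallest of the 10 genes. The difference of -0.29 (log2, standard error 0.094) just missed the threshold (adjusted p = 0.0584, limma). It passed in 5 of 19 alternatives, among them without wild-type mouse 3 (-0.33, adjusted p = 0.0108, limma), and was -0.17 after quantile normalization (adjusted p = 0.33, limma).

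The ratio of release channel to voltage sensor was compared within each mouse. Ryr1 minus Cacna1s ranged from 0.97 to 1.19 in knock-out and from 0.70 to 1.37 in wild-type mice, where wild-type mouse 3 had the value of 0.70 and the other 4 lay between 1.32 and 1.37. The shift of -0.12 did not pass (exact permutation test, p = 0.397, adjusted p = 0.46 over 3 pairs). Without wild-type mouse 3 the shift was -0.24, the genotypes no longer overlapped, and the exact permutation test gave p = 0.0159 (adjusted p = 0.0238). The result for this pair thus rests on that mouse.

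Junctophilins span the gap between tubule and reticulum. Jph2 (ENSMUSG00000017817, chromosome 2, 163336242 to 163397993, reverse strand) had 14.10, 14.45, 14.55, 14.35 and 14.14 in knock-out and 14.60, 14.54, 14.96, 14.82 and 14.71 in wild-type mice. In knock-out mice 1, 2, 4 and 5 Jph2 was lower than in any wild-type mouse, and in knock-out mouse 3 just higher than in wild-type mouse 2. Knock-out muscle was 24.6% lower, a log2 difference of -0.41 with a standard error of 0.12 (limma, adjusted p = 0.0404). Over the 19 alternatives limma's adjusted p lay between 0.0113 and 0.123. The call was held in 8 of them. It held without wild-type mouse 1, 2 or 3 or knock-out mouse 3 and was lost when any other mouse was left out, with differences from -0.46 to -0.35 over the mice left out, the latter without wild-type mouse 3.

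Jph1 (ENSMUSG00000042686, chromosome 1, 16964560 to 17097889, reverse strand), the junctophilin made mainly in skeletal muscle, had 13.18, 13.46, 13.64, 13.40 and 13.49 in knock-out and 13.97, 13.70, 13.09, 13.59 and 13.75 in wild-type mice. Wild-type mouse 3 was the lowest of all 10, and the other 4 wild-type mice lay above 4 of 5 knock-out mice. The log2 difference was -0.19 (95% confidence interval -0.50 to 0.13, adjusted p = 0.445, limma) and -0.32 without wild-type mouse 3 (adjusted p = 0.0423, limma). The within-mouse difference Jph2 minus Jph1 ranged from 0.65 to 0.98 in knock-out and from 0.63 to 1.87 in wild-type mice and shifted by -0.22 (exact permutation test, p = 0.46). Without wild-type mouse 3 this shift was -0.029.

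**Figure D3:**
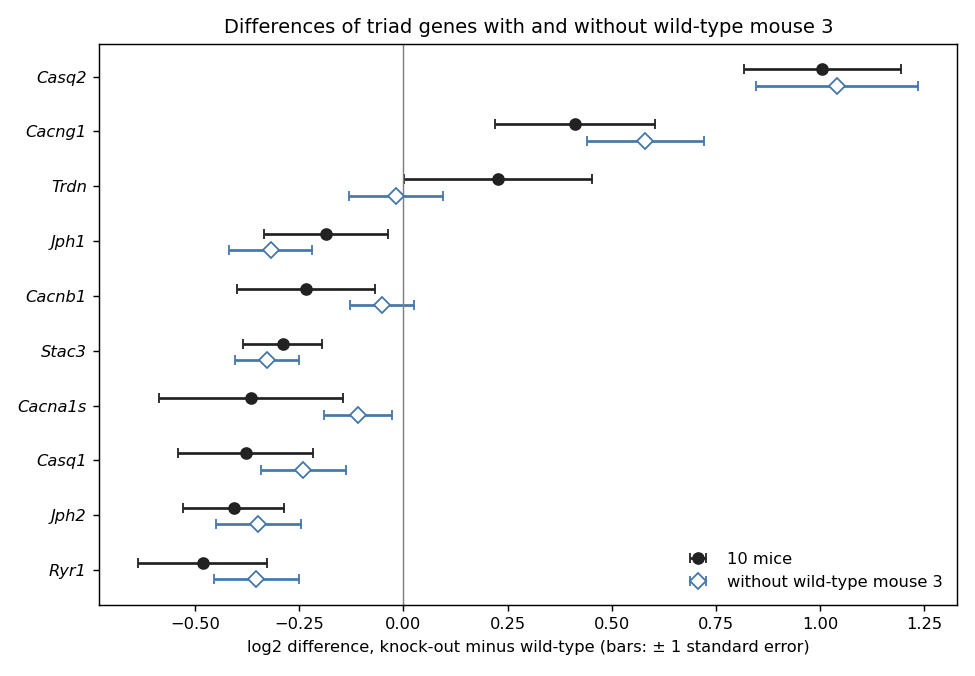
Log2 differences (knock-out minus wild-type, x axis) of the 10 triad genes with their standard errors, from all 10 mice (filled circles) and without wild-type mouse 3 (open diamonds). Casq2 stays near 1 in both, Cacna1s and Cacnb1 move from -0.37 and -0.23 to -0.11 and -0.051, and Trdn moves from 0.23 to -0.017.

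The spread within a genotype was uneven. Over the 10 genes the SD ranged from 0.045 to 0.20 in knock-out mice and from 0.16 to 0.59 in wild-type mice. Wild-type mouse 3 deviated from the mean of the other 4 wild-type mice in both directions, by 1.28 for Cacna1s, 0.91 for Cacnb1, 0.84 for Cacng1, 0.69 for Casq1 and 0.64 for Ryr1, but by -1.22 for Trdn and -0.66 for Jph1. For Casq2, Jph2 and Stac3, the deviation was between -0.19 and 0.29. Deviations of more than 0.6 in either direction were found for 23.2% of all tested genes. The deviation moved with the GC content of the transcript, which ranged from 36.8% in Trdn to 61.8% in Jph2. Over these 10 genes Pearson r was 0.75 and the rank correlation (Spearman) 0.55. Pearson r was 0.41 over 14277 tested genes, which share the same libraries. Once trends on GC content and exon length were taken out of each library, the deviation of Trdn was -0.53 and that of Cacna1s still 1.17. Those of Ryr1 (0.77) and Stac3 (-0.46) were larger in size than before. That of Casq2 was almost unchanged, and those of the other genes were smaller. The part of GC content in the differences was not tested further.

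Levels can be compared between genes once the exon length is taken off (rlog value minus log2 of the exon length in kb, given here as the median of 5 wild-type mice). Casq1 was the most abundant with 15.87, followed by Cacng1 (13.22), Jph2 (12.62), Trdn (12.28), Cacna1s (12.26), Stac3 (12.08), Ryr1 (11.85), Jph1 (11.38), Cacnb1 (10.29) and Casq2 (9.27). Neighbours from Jph2 to Ryr1 overlapped in their ranges, as did Jph1 and Cacnb1, whereas Casq1, Cacng1 and Casq2 were each separate from their neighbours. In knock-out mice Casq2 (10.22) lay next to Cacnb1 (10.20), with overlapping ranges from 9.92 to 10.34 and from 10.13 to 10.36. Trdn and Jph2 also changed places with ranges that overlapped, and the other 6 genes kept theirs. Exons of minor isoforms count towards these lengths so the order is approximate.

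**Figure D4:**
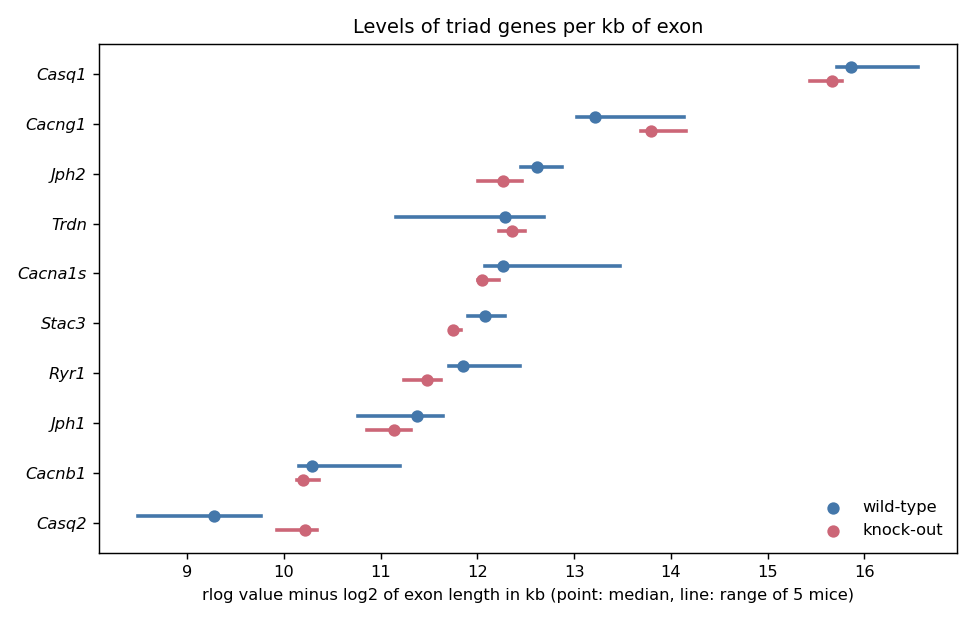
Levels of the 10 triad genes per kb of exon (x axis, rlog value minus log2 of exon length in kb). Points are medians and lines the ranges of 5 mice, wild-type in blue and knock-out in red. Casq1 leads in both genotypes with medians of 15.87 and 15.67, and Casq2 moves from 9.27 to 10.22, level with Cacnb1.

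Over the 10 mice, the genes most like Ryr1 of all tested genes were Anapc5, a subunit of the anaphase-promoting complex (Pearson r = 0.98), Actn3 (r = 0.97) and Castor2, an arginine sensor (r = 0.97). With the mean of each genotype subtracted these values were 0.95, 0.93 and 0.93. Among the triad genes the r with Ryr1 was 0.94 for Casq1, 0.89 for Jph2, 0.88 for Cacna1s and 0.86 for Cacnb1, but 0.43 for Stac3, 0.080 for Cacng1, -0.15 for Jph1, -0.62 for Casq2 and -0.74 for Trdn. With the genotype means subtracted, r was 0.91 for Casq1, 0.75 for Jph2, 0.92 for Cacna1s, 0.93 for Cacnb1 and 0.85 for Cacng1, but -0.42 for Stac3, -0.69 for Jph1, -0.82 for Trdn and 0.025 for Casq2. Over the 9 mice without wild-type mouse 3 and with the genotype difference kept, r was -0.41 for Cacng1, 0.58 for Jph1 and -0.10 for Trdn, and 0.85 for Casq1. For Cacng1, Jph1 and Trdn the sign or size of r thus depended on that mouse and on the genotype means. Over the same 9 mice r was 0.69 for Stac3, 0.65 for Cacnb1, -0.74 for Casq2, 0.85 for Cacna1s and 0.87 for Jph2. The sign for Stac3 and the size for Casq2 changed with the genotype means subtracted. Values with the genotype means subtracted were not computed without wild-type mouse 3.

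Of the 26 further genes of triad and sarcoplasmic reticulum, 25 were tested, and 2 rose and 4 fell, with a median log2 difference of -0.063. That is 24% called, against 13.7% of all tested genes (7.7% higher and 5.99% lower). The genotypes did not overlap for 8 of the 25, against 14.4% of all tested genes. Fkbp1b, which encodes a protein that binds the release channel, was too low to be tested. Speg, a kinase of the triad, had values from 12.60 to 12.85 in knock-out and from 13.18 to 13.51 in wild-type mice and fell by 0.58 on the log2 scale (adjusted p = 8.65e-04, limma). Speg lies 0.00672 Mb from the targeted gene Des on chromosome 1, so that loss of desmin and the altered locus next to it cannot be told apart for this gene. Calm3, a gene for the calcium sensor calmodulin that binds the release channel, fell by 0.59 (adjusted p = 0.0114), while Calm2 had a log2 difference of -0.18 (adjusted p = 0.304, limma for each). For Calm3 the groups overlapped through wild-type mouse 3, and without that mouse the difference was -0.73. Its call was lost in 1 of 19 alternatives, with GC and length trends removed (adjusted p = 0.0662, limma).

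Sypl2, which encodes mitsugumin-29 of the triad membrane, fell by 0.49 (adjusted p = 0.0406, limma), a call held in 11 of 19 alternatives. Trim72, a membrane repair gene, rose by 0.27 (adjusted p = 0.0493), and Tmem38b, one of 2 genes for the potassium channels of the reticulum, rose by 0.26 with an adjusted p just under 0.05 (limma for each). The genotypes did not overlap for Trim72 and Tmem38b, but each call held in only 5 of 19 alternatives. Tmem38a, the other gene for these channels, had the opposite sign, with 15.62 to 15.81 in knock-out and 15.83 to 16.72 in wild-type mice, again without overlap. Its log2 difference of -0.37 did not pass (adjusted p = 0.163, limma). Dhrs7c, an enzyme of the reticulum (log2 difference -0.54, adjusted p = 0.0571), and S100a1, a calcium-binding partner of the release channel (0.29, adjusted p = 0.142), did not pass with all 10 mice and passed without wild-type mouse 3 (adjusted p = 0.0103 and 0.0177, limma for each). Stim1, Orai1, Bin1, Dysf and Cav3, which serve calcium entry or the tubule membrane, had log2 differences between -0.063 and 0.23, and none of these passed.

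Of 14 paralogs of the triad genes, some typical of other tissues and some also made in skeletal muscle, 7 lay under the expression limit, among them Ryr2, the release channel of the heart, and Jph3 and Jph4, the junctophilins of the brain. The other 7 were Ryr3, Cacna1c, Cacnb3, Cacnb4, Cacng6, Cacng7 and Stac, of which 2 fell. That is 28.6% called, against 13.7% of all tested genes (5.99% lower). Cacng7, a γ subunit gene better known from brain, had 8.24, 8.30, 8.34, 8.45 and 8.56 in knock-out and 9.51, 9.27, 9.58, 9.48 and 9.67 in wild-type mice. The genotypes did not overlap, and knock-out muscle differed by -1.12 on the log2 scale (standard error 0.10, adjusted p = 8.19e-06, limma), which stayed between -1.18 and -0.99 and passed in all 19 alternatives. Ryr3, the minor release channel of muscle, had 6.79, 6.76, 6.98, 6.85 and 6.58 in knock-out and 8.20, 8.32, 6.85, 7.31 and 7.53 in wild-type mice. Wild-type mouse 3 fell within the knock-out range and the other 4 lay above it. The difference of -0.85 (log2, standard error 0.24) had an adjusted p of 0.0289 (limma), and it was -1.05 without that mouse (adjusted p = 0.00183, limma). The call held in 12 of 19 alternatives and was lost without any one of knock-out mice 1, 2, 4 and 5 or wild-type mice 1 and 2, with -0.68 as the smallest difference. Cacng6, the abundant second γ subunit gene of skeletal muscle, had -0.27 (adjusted p = 0.165, limma), while Cacnb3 had -0.32, Cacnb4 0.27, Stac -0.17 and Cacna1c -0.014, none of which passed.

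**Figure D5:**
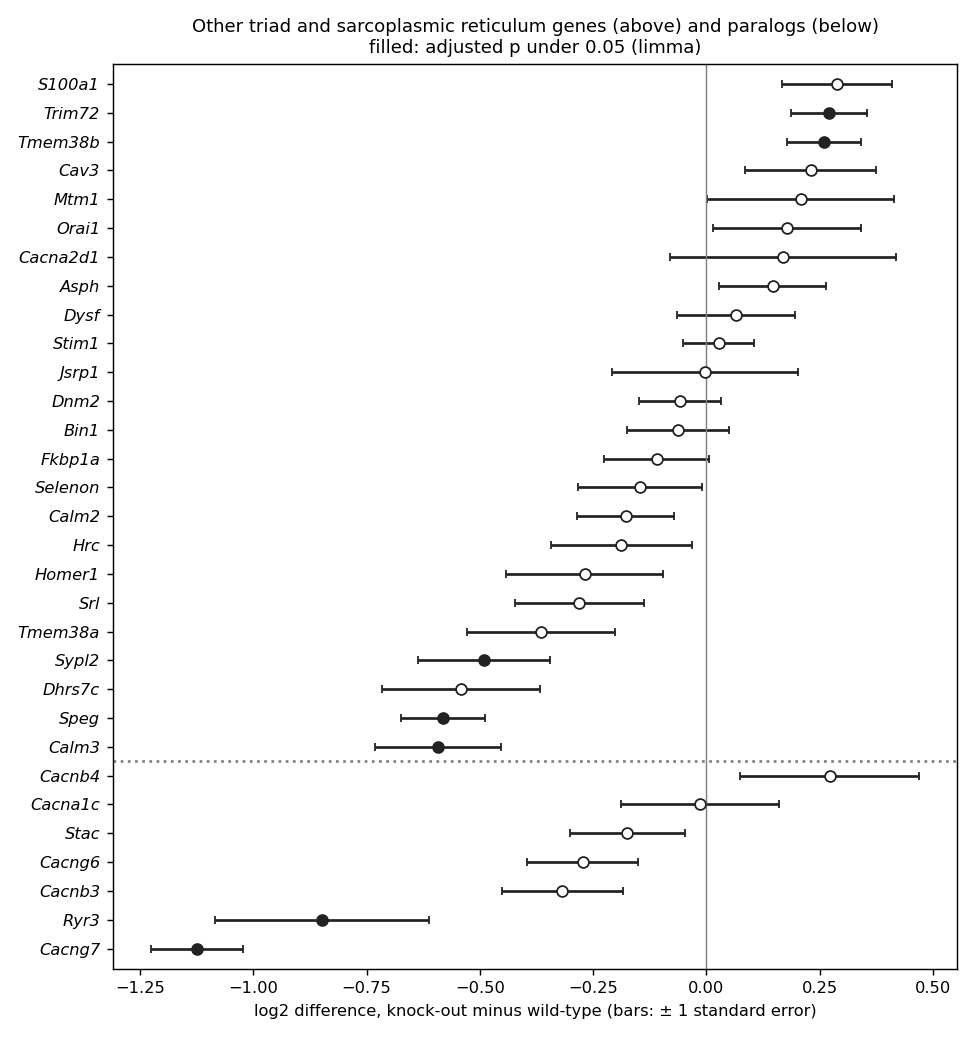
Log2 differences (knock-out minus wild-type, x axis) with standard errors for 24 of the 25 tested further triad and reticulum genes (above the dotted line) and the 7 tested paralogs (below). Filled points passed an adjusted p of 0.05 (limma), 5 above and 2 below the line, with Cacng7 at -1.12 as the lowest.

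Other cell types were checked in the same libraries. Fibroblast markers were higher in 4 of 6 and endothelial markers lower in 3 of 5, while none of the 6 macrophage, 5 smooth muscle, 5 adipocyte and 5 Schwann cell markers passed. Of all tested genes, 7.7% were higher and 5.99% lower. The summed level of the fibroblast list ranged from 13.82 to 14.42 in knock-out and from 13.36 to 14.29 in wild-type mice, and that of the endothelial list from 11.71 to 12.09 and from 12.06 to 12.38 (log2 of the summed values). Of the blood list, 2 of 5 genes fell, with sums from 11.49 to 12.09 in knock-out and from 12.00 to 13.37 in wild-type mice. Wild-type mouse 3 had the 13.37, and the other wild-type mice reached 12.29. The part of these cells in the differences of the triad genes was not tested. Of the 10 triad genes, 3 share chromosome 1 with Des, Jph1 58.3 Mb, Cacna1s 60.7 Mb and Casq1 96.8 Mb away from it.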

How the data were processed

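RNA from the gastrocnemius muscle of 5 desmin knock-out and 5 wild-type mice was sequenced from stranded mRNA libraries. According to the submitters' processing notes, cutadapt 2.5, STAR 2.5.4a, featureCounts of Subread 1.6.1, DESeq2 and GRCm38 were used; the methods of the study also name featureCounts on a Galaxy server, and which run gave the table, and whether strand was counted, is not given in the sources used here. The table deposited by the authors holds rlog values on a log2 scale, 1 column per mouse, for 54232 genes, of which 26079 are 0 in all mice. Counts and depth are unknown. No 2 columns were alike.

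Symbols, positions and exon lengths came from GENCODE M21 (GRCm38), and promoter stretches from RefSeq (GRCm38.p6), which held 6 of the 10 genes. Testing was limited to the 14289 genes whose mean reached log2(10). It used limma 3.58.1 (R 4.3.3; variance prior following the mean, two-sided, Benjamini-Hochberg over all of them), after a test on simulated data. Within-mouse differences used exact permutation tests (scipy 1.17.1). Named were all 10 genes, Des, up to 8 further triad genes and up to 3 per fiber list by adjusted p, each tested paralog and the 3 genes most like Ryr1; genes of the further list outside these and the cell type markers were named as list members after their values were seen. Of the further triad genes, 1 is counted but not reported here. The genes and lists were chosen with earlier results of these data known. Replicates are separate mice by label. Alternatives were other expression limits and scalings, a single prior variance, sample weights, the replicate block, Y-linked transcripts as a covariate, GC and length trends removed, and each mouse left out.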

Additional observations from a re-analysis of the deposited data

Results flagged for a closer look

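For the genes named and the 3 within-mouse differences, each genotype was searched for a mouse that stood apart. This gave 12 of 80 sets of 5 mice. Chance would give about 4 if the sets were independent. They come from the same 10 mice, so no excess over chance can be read from this count. Wild-type mouse 3, already set apart above, was the mouse in 9 of the 12. It was the highest wild-type mouse for Cacna1s (16.19), Cacnb1 (13.38), Ryr1 (16.89), Dhrs7c (13.80), Des (17.74), Tnnt1 (12.43) and Actn3 (19.34), and the lowest for Calm3 (12.81) and for the difference Ryr1 minus Cacna1s (0.70). The remaining 3 were knock-out mouse 1 for Cacna1c (6.14), knock-out mouse 4 for Cacnb3 (5.67) and knock-out mouse 5 for Jph2 minus Jph1 (0.65). Trdn and Jph1, for which wild-type mouse 3 was the lowest of all 10 mice, did not meet this limit.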

How the results depend on the processing

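Casq2 passed in all 19 alternatives, and Cacna1s, Cacnb1 and Trdn in none. Of the 10 triad genes, 2 passed with all mice, 1 without an expression limit, 1 with the replicate block, 4 with the mean level of 4 Y-linked genes (none of which passed) as a covariate and 7 with sample weights (adjusted p under 0.05, limma). With single mice left out, this number ranged from 1 to 6, the highest being without wild-type mouse 3. The further triad genes (6) gave 3 without a limit and 13 with sample weights, and 3 to 10 with single mice left out. The tested paralogs (2) gave 1 without a limit and 1 to 2 with single mice left out. Of all 14289 tested genes, 1956 passed with all mice, 1579 with the replicate block, 2090 with the Y-linked covariate and 4220 with sample weights. Without an expression limit it was 1563 of 28153, and with single mice left out the number ranged from 1399 to 2494. Weights were 0.1 and 0.27 for wild-type mice 3 and 4, and 4.21 and 3.22 for knock-out mice 4 and 5. The causes were not tested. The shift of Casq2 minus Casq1 was 1.38 with the replicate block as well, but the exact sign-flip permutation test of 5 pairs cannot go below p = 0.0625 (adjusted p = 0.188). That shift ranged from 1.20 to 1.61 with single mice left out, and the shift of Ryr1 minus Cacna1s from -0.24 to -0.077. Same-numbered mice did not deviate together (correlations from -0.22 to 0.067, and in 0 of 5 pairs was the same number the best match). Such correlations cannot show whether equal numbers share a litter or a preparation, so it is unknown whether the numbers pair the mice. With the block, Jph2 had an adjusted p of 0.0526 (limma). Depth is unknown for these values.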
